A study of Homo sapiens with 6 samples.

Results

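The heat shock proteins and their DNAJ cochaperones were examined in BT-549 cells, an established line of triple-negative breast cancer, after silencing of NEAT1. Members were chosen by gene symbol alone: the HSPA, HSPB, DNAJA, DNAJB and DNAJC series, HSP90AA1, HSP90AB1, HSP90B1, TRAP1, HSPD1, HSPE1, HSPH1 and the transcription factor HSF1. The rule found 74 genes among the 25545 of the expression table. RNA was sequenced from 3 cultures transfected with a control siRNA (CsiRNA) and 3 transfected with an siRNA against the long noncoding RNA NEAT1 (NEAT1siRNA). RNA was taken 48 h after transfection, and the sample titles carry the prefix tet in both groups. One cell line and the RNA of its transfected pool were studied, so fewer expressing cells and less RNA per cell cannot be told apart.

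Chaperones bind proteins that are not folded and keep them from aggregating. HSP70 proteins (the HSPA genes) work in a cycle of ATP hydrolysis: a J-domain protein (the DNAJ genes) hands over the client and triggers hydrolysis, and an exchange factor releases the nucleotide. HSP110 proteins are distant HSP70 relatives that act as exchange factors, HSP90 proteins mature kinases, receptors and other clients, HSPD1 and HSPE1 form the chaperonin of the mitochondrial matrix, and small HSPs (the HSPB genes) hold unfolded clients without ATP. HSF1 is the factor that induces many of these genes after heat, and cancer cells often carry high levels of them.

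HSF1 binds the heat shock element, written here as GAANNTTCNNGAA or its complement TTCNNGAANNTTC. The ER stress element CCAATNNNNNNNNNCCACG lies in front of chaperone genes of the endoplasmic reticulum (ER). Both were searched on both strands in RefSeq promoters (GRCh38.p14, 250 bases before to 50 after the start of the gene), which were found for 64 of the 74 members. Only exact matches were counted, so a promoter with a variant element counts as having none. The heat shock element occurred in 7 of these 64 (10.9%) and in 166 of 27305 promoters in all (0.608%). The ER stress element occurred in 2 of the 64 (3.13%) and in 25 of the 27305 (0.0916%). The windows of 30 bases below show 1 element for each tested gene that has one, because these genes include the most abundant chaperones of the cells. HSPA8, HSP90AB1, HSPD1 and HSP90B1 hold 2 elements each, which overlap in HSPD1. Capitals mark the element, and each window is read 5′ to 3′ on the strand of its gene.
HSPA8, heat shock element, chr11:123062170-123062199, minus strand: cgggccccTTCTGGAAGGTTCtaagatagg
HSP90AA1, heat shock element, chr14:102087111-102087140, minus strand: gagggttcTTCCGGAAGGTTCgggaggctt
HSP90AB1, heat shock element, chr6:44247823-44247852, plus strand: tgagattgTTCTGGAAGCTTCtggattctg
HSPD1, heat shock element, chr2:197500059-197500088, minus strand: attttctgGAAAGTTCTGGAAccgagcgag
DNAJA1, heat shock element, chr9:33025268-33025297, plus strand: gccgggcgGAACTTTCCAGAAcgctcggtg
DNAJB6, heat shock element, chr7:157336865-157336894, plus strand: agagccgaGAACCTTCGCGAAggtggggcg
HSPA5, ER stress element, chr9:125241385-125241414, minus strand: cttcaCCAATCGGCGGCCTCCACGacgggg
HSP90B1, ER stress element, chr12:103930211-103930240, plus strand: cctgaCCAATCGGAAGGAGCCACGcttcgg

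NEAT1 itself was read at 13.4, 7.68 and 10.8 TPM with CsiRNA and at 4.36, 2.96 and 2.73 TPM with NEAT1siRNA (TPM is transcript abundance scaled for length and to a library total of 1000000). The silenced RNA was therefore at 31.5% of the control mean, and the groups did not overlap. Its log2 fold change was -1.41 ± 0.14 (SE, n = 3 per group), with an adjusted p of 1.21e-07 in limma. The libraries held 15788129 to 20342595 recovered reads in genes. In each library 64.4 to 68.1% of all TPM came from 4 short noncoding RNAs (RN7SK, RN7SL1, RN7SL2 and RPPH1), which lowers the TPM of every messenger RNA. The libraries also differed in a trend with GC content: over 10423 genes the Spearman correlation of a library's deviation with GC was 0.66 in NEAT1siRNA replicate 1 and -0.71 in NEAT1siRNA replicate 2. The line's markers stood at a mean of 993 TPM for VIM and 92.9 TPM for CDH2. ESR1 was listed at 0 in all libraries, and EPCAM and CDH1 lay under 1 TPM. Other markers listed as low or epithelial were not absent: ERBB2 had a mean of 6.09 TPM and KRT18 of 1.61 TPM.

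HSPA8, the constitutive HSP70 of the cytosol, was the most abundant member, with 1141 ± 61.2 TPM in the CsiRNA cells (SD, n = 3). It was followed by the cytosolic HSP90 proteins HSP90AA1 (750 ± 21.7 TPM) and HSP90AB1 (666 ± 11.1 TPM) and by HSP90B1, the HSP90 of the ER (459 ± 8.75 TPM). These 4 genes gave 55.6% of the members' TPM in the CsiRNA cells, HSPA8 alone 21.0%. The HSP90 family held 35.7% and the HSP70 family 32.6%, while the 26 DNAJC genes together held 7.79%. The range over all 74 members was wide, since 11 had a mean of at least 100 TPM and 20 had less than 1.

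**Figure D1:**
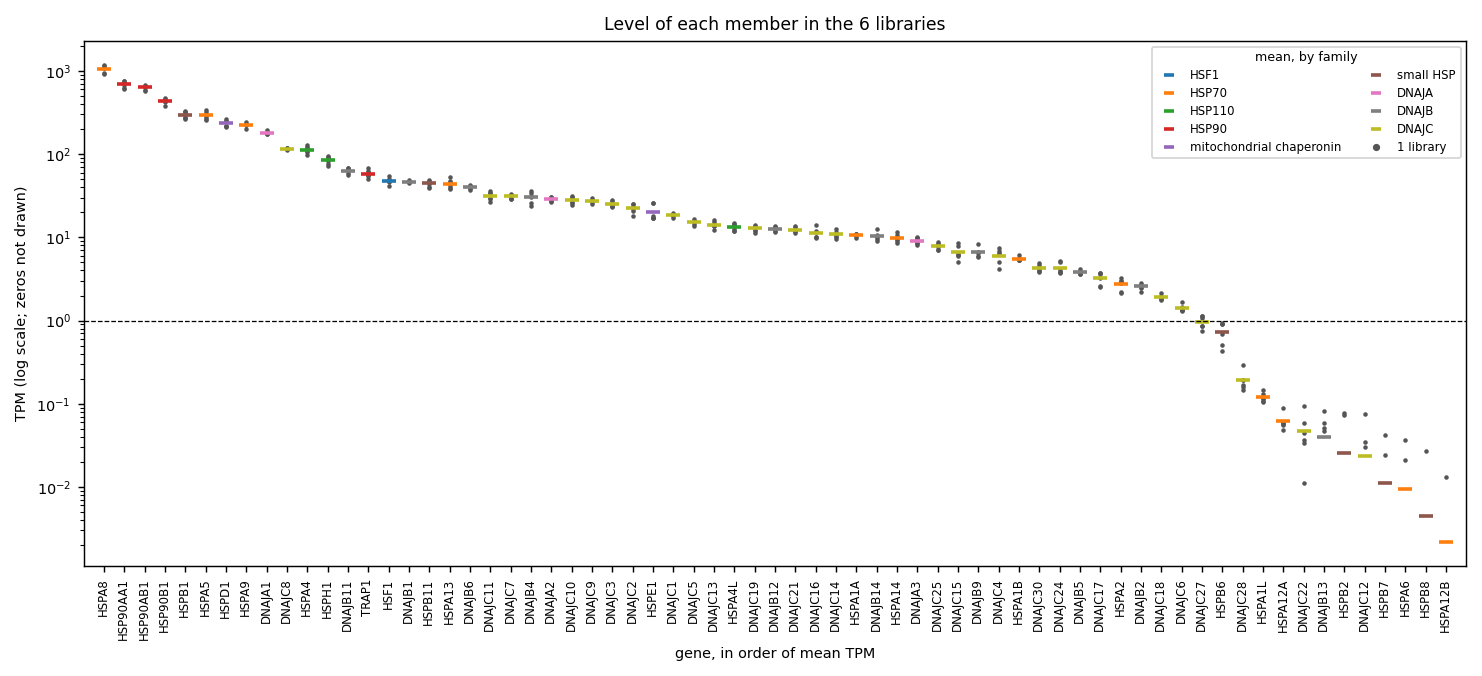
TPM (log axis) of every member with any signal, in order of the mean over the 6 libraries; dots are libraries, coloured dashes are means by family, and the dashed line marks 1 TPM. HSPA8 and the HSP90 genes stand at the left, and the libraries of 1 gene lie close together down to about 1 TPM.

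The 20 members under 1 TPM were not tested. DNAJA4, DNAJB3, DNAJB7, DNAJB8, HSPA7, HSPB3 and HSPB9 were listed at 0 in all 6 libraries. DNAJB13, DNAJC12, DNAJC22, DNAJC27, DNAJC28, HSPA12A, HSPA12B, HSPA1L, HSPA6, HSPB2, HSPB6, HSPB7 and HSPB8 ranged from a mean of 0.00219 TPM (HSPA12B) to 0.967 TPM (DNAJC27). HSPA6, an HSP70 gene that cells switch on after strong heat, carries the heat shock element and was at or under 0.0363 TPM in every library. Of the 8 small HSP genes only HSPB1 and HSPB11 passed the minimum of 1 TPM.

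The levels of HSPA1A and HSPA1B, the classic heat-inducible HSP70 genes, need care. One TPM of HSPA1A stood for 276 reads and 1 TPM of HSPB1 for 14.3 reads, and for HSPA8 the figure was 50.5. The longest transcripts of HSPA1A (2400 bases) and HSPA8 (2306 bases) are of similar length, yet per kilobase 1 TPM of HSPA1A took 5.39 times as many reads as the median gene. For HSPA1B the factor was 5.33 and for HSPA1L 4.90, whereas it was 1.03 for HSPA8, and 0.585% of all tested genes were above 4. With 2945 reads on average HSPA1A was thus a well-read gene although it was listed at only 10.7 TPM. The factor applies to all libraries alike, so it touches the order of the levels. It touches the comparison of the groups only through the pseudocount of 1, which shrinks changes at low TPM. HSPA1A and HSPA1B also encode nearly identical messages, and reads may have been shared between them.

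Between NEAT1siRNA and CsiRNA, 3 members rose and 4 fell among the 54 tested. HSPB1, DNAJC4 and DNAJC15 rose by 18.9 to 33.6% of the control mean in TPM. HSPE1, DNAJB4, DNAJC11 and DNAJC16 fell, with differences between -24.1 and -18.9%. These 7 are 13.0% of the members tested. Of all 10721 genes tested 14.0% passed the same threshold, 4.99% higher and 8.98% lower, so the share of members is near the background and is no result about the family. The test was limma on log2(TPM + 1) over genes with a mean of at least 1 TPM, two-sided, with Benjamini-Hochberg adjustment over all 10721 genes and a threshold of 0.05. At an unadjusted p under 0.05 the count was 14 of 54, beside 27.4% of all genes. The median log2 fold change of the members was -0.07, beside -0.04 for all genes tested, and 40 of 54 members had a negative value, beside 60.7% of all genes. In 5 members each NEAT1siRNA library lay above every control (11.0% of all genes did so), and in 12 each lay below (19.3% of all genes).

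On recovered reads (voom of limma) 12 members passed, beside 23.3% of all genes. DNAJA3, DNAJC2, HSP90AA1, HSPA5, HSPA8 and TRAP1 were added, all lower, and HSPE1 was lost. The calls lie close to the threshold, with adjusted p-values from 0.0252 to 0.045, and individual libraries decide them. With CsiRNA replicate 1 left out, 0 members passed, beside 7.08% of all genes. Leaving out CsiRNA replicate 2 left DNAJC15 alone (all genes 12%), and leaving out NEAT1siRNA replicate 3 left DNAJC4 alone (all genes 7.82%). The count was 4 when NEAT1siRNA replicate 1 was removed (all genes 13.7%), 10 when CsiRNA replicate 3 was removed (all genes 13.2%) and 14 when NEAT1siRNA replicate 2 was removed (all genes 19.4%). With the trend on GC content and length removed from each library, all 7 passed and the count rose to 18 (3 higher, 15 lower), 33.3% of the members beside 32.3% of all genes.

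**Figure D2:**
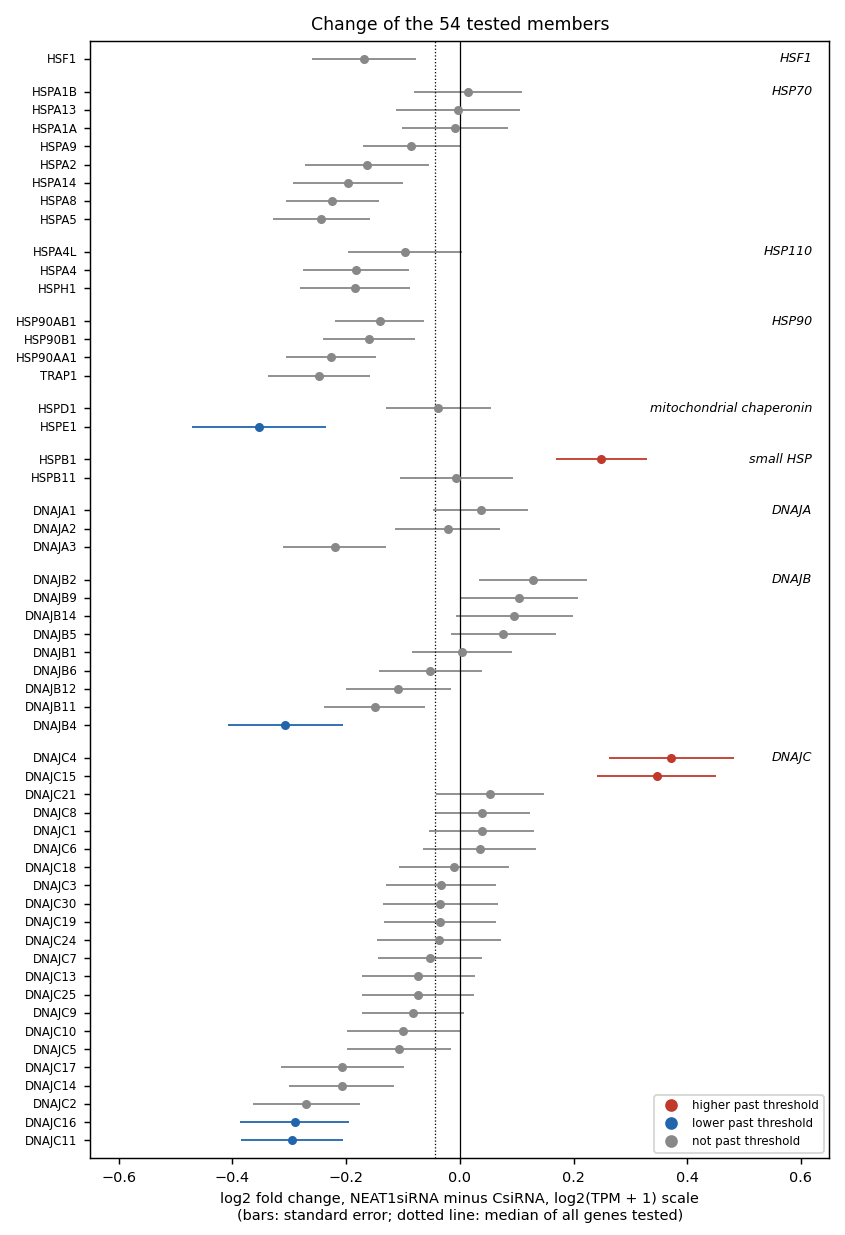
Log2 fold change of the 54 tested members (NEAT1siRNA minus CsiRNA, log2(TPM + 1) scale) with its standard error, grouped by family; red and blue points passed the threshold and grey points did not, and the dotted line is the median of all genes tested. HSPB1, DNAJC4 and DNAJC15 lie to the right, and all HSP90 and HSP110 points lie left of 0.

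HSPB1, also called HSP27, is the ubiquitous small HSP and binds unfolded proteins and actin. It was read at 282, 265 and 274 TPM in the CsiRNA libraries. In the NEAT1siRNA libraries the values were 334, 320 and 322 TPM. The groups did not overlap, and the gap between them was larger than the spread within either group. The log2 fold change of HSPB1 was 0.25 ± 0.08 (SE, n = 3 per group), with an adjusted p of 0.0393 in limma. HSPB1 passed in 11 of 17 alternatives. HSPB11, which shares the name but is known as a subunit of the intraflagellar transport complex, was at 44.7 ± 5.04 TPM and 44.4 ± 4.34 TPM (SD, n = 3), with a 95% interval of the log2 fold change from -0.21 to 0.20.

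HSPA8, the most abundant HSP70, stood at 1194, 1154 and 1074 TPM with CsiRNA and at 939, 1078 and 917 TPM with NEAT1siRNA. NEAT1siRNA replicate 2 lay just above the lowest control, so the groups overlapped. The log2 fold change of HSPA8 was -0.22 ± 0.08 (SE), and its adjusted p of 0.0677 missed the threshold. HSPA5 (BiP, the HSP70 of the ER) was at 342, 322 and 293 TPM with CsiRNA and at 268, 281 and 257 TPM with NEAT1siRNA. Each NEAT1siRNA library lay below each control, with a log2 fold change of -0.24 ± 0.09 (SE) and an adjusted p of 0.0564. HSPA8 passed the threshold in 7 and HSPA5 in 10 of 17 alternatives, among them the fit on recovered reads and the fit with the GC trend removed.

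In TPM, the order of HSPB1 and HSPA5 differed between the groups. In each of the 3 CsiRNA libraries HSPA5 stood above HSPB1, and in each of the 3 NEAT1siRNA libraries HSPB1 stood above HSPA5. By reads HSPA5 was far higher, with 25115 on average against 4268 for HSPB1, so the crossing rests on the length scaling of TPM. Against HSPA8 of the same library, HSPB1 was at a ratio of 0.236, 0.229 and 0.255 with CsiRNA and at 0.356, 0.297 and 0.351 with NEAT1siRNA. All 3 ratios were higher, with a two-sided exact permutation p of 0.1, the smallest that 3 against 3 libraries allow. HSPB1 had a positive and HSPA8 a negative fold change, so this order partly repeats those values. A ratio within a library does not depend on the library's scaling. It can still carry a library's GC trend where the genes differ in GC content, here 64.3% for HSPB1 and 45.7% for HSPA8. Within each group the ratios ranked as the libraries' correlations with GC did. An effect of GC on the ratio was not tested.

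The heat-inducible HSP70 genes lay near 0 on the log2 scale. HSPA1A was at 11.0, 10.5 and 10.5 TPM with CsiRNA and at 11.1, 11.1 and 9.79 TPM with NEAT1siRNA. HSPA1B was at 5.72, 5.52 and 5.34 TPM and at 6.17, 5.29 and 5.34 TPM. The 95% intervals of their log2 fold changes ran from -0.20 to 0.18 and from -0.18 to 0.21. A change of the size fitted for HSPB1 lies outside both on this scale, which understates changes of low genes. The sign of each fold change was not stable across fits. The ratio of HSPA8 to HSPA1A was 108, 110 and 102 with CsiRNA and 84.6, 97.4 and 93.6 with NEAT1siRNA (two-sided exact permutation p = 0.1, the smallest possible). GC content is 45.7% for HSPA8 and 59.8% for HSPA1A. Within each group this ratio ranked opposite to the libraries' correlations with GC. An effect of GC on it was not tested.

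None of the 8 tested HSP70 and 3 tested HSP110 genes passed in limma, beside 14.0% of all genes. At an unadjusted p under 0.05, 2 and 0 did, beside 27.4% of all genes. HSPA9, the HSP70 of the mitochondrial matrix, was at 234 ± 10.8 TPM and 221 ± 14.9 TPM (SD, n = 3), with overlapping groups. The ratio of HSPA5 to HSPA9 was 1.40, 1.38 and 1.31 with CsiRNA and 1.18, 1.22 and 1.26 with NEAT1siRNA (two-sided exact permutation p = 0.1). HSPA13, HSPA14 and HSPA2 had log2 fold changes from -0.20 (HSPA14) to about 0 (HSPA13). The 3 HSP110 genes HSPH1, HSPA4 and HSPA4L had negative values, as 60.7% of all genes did, and their groups overlapped. HSPH1 was at 95.8, 92.8 and 82.7 TPM with CsiRNA and at 76.8, 90.6 and 71.7 TPM with NEAT1siRNA, with an adjusted p of 0.22.

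All 4 HSP90 genes were lower in each NEAT1siRNA library than in any control, an order found for 19.3% of all genes tested and in 12 members. None of the 4 passed the test in either direction, beside 14.0% of all genes. HSP90AA1, the stress-responsive HSP90 of the cytosol, was at 759, 766 and 725 TPM with CsiRNA and at 633, 684 and 609 TPM with NEAT1siRNA. Its log2 fold change was -0.23 ± 0.08 (SE), with an adjusted p of 0.0565. HSP90AB1, its constitutive partner, was at 679, 663 and 657 TPM and at 643, 595 and 576 TPM. The change of HSP90AB1 was smaller, -0.14 ± 0.08 (SE), and its adjusted p was 0.256. The ratio of HSP90AA1 to HSP90AB1 overlapped between the groups (two-sided exact permutation p = 0.3). HSP90B1 was at 455, 453 and 469 TPM and at 421, 434 and 380 TPM (log2 fold change -0.16 ± 0.08 SE, adjusted p = 0.208). TRAP1, the mitochondrial HSP90, was at 68.1, 62.5 and 60.4 TPM and at 54.6, 56.1 and 49.6 TPM (log2 fold change -0.25 ± 0.09 SE, adjusted p = 0.068). At an unadjusted p under 0.05, 2 of the 4 passed, HSP90AA1 and TRAP1, beside 27.4% of all genes. After adjustment HSP90AA1 and TRAP1 passed in 8 and 9 of 17 alternatives. In those alternatives 13.2 to 32.3% of all genes passed. HSP90AB1 and HSP90B1 passed in none of the 17.

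**Figure D3:**
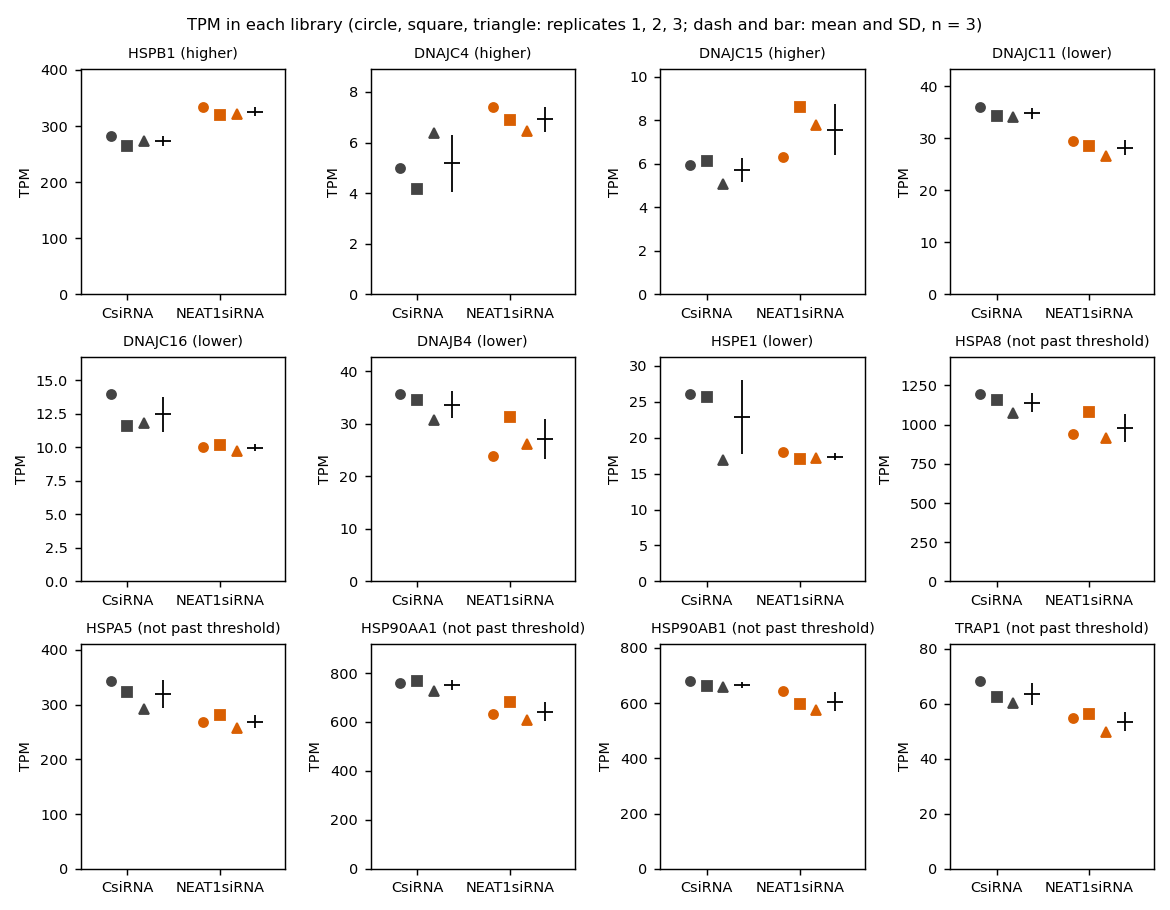
TPM of 12 members in each library (axes start at 0), with the mean and SD of 3 replicates beside each group: the 7 members past the threshold and HSPA8, HSPA5, HSP90AA1, HSP90AB1 and TRAP1. HSPB1 and DNAJC11 show clear gaps between the groups, while HSPE1 has 1 control at the level of the NEAT1siRNA libraries.

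HSPE1 and HSPD1, the lid (HSP10) and the barrel (HSP60) of the mitochondrial chaperonin, lie head to head on chromosome 2. HSPE1 was at 26.0, 25.6 and 16.9 TPM with CsiRNA and at 17.9, 17.1 and 17.1 TPM with NEAT1siRNA. CsiRNA replicate 3 was the lowest of the 6 libraries, so the groups overlapped although HSPE1 fell by the test (log2 fold change -0.35 ± 0.12 SE, adjusted p = 0.045). The call was lost with quantile normalization, with centring on the median, with TPM rescaled without the 4 short RNAs and on recovered reads, and HSPE1 passed in 9 of 17 alternatives. HSPD1 was at 247, 247 and 219 TPM and at 218, 266 and 213 TPM, with a 95% interval of the log2 fold change from -0.23 to 0.15. The ratio of HSPE1 to HSPD1 overlapped between the groups (two-sided exact permutation p = 0.3). The annotated spans of both genes overlap by 3310 bases on opposite strands, and HSPE1 shares its strand with the readthrough gene HSPE1-MOB4, so its 308 reads on average are an uncertain measure.

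DNAJA1 and DNAJB1, the main J proteins of the cytosolic HSP70, did not pass, and their groups overlapped. DNAJA1 was at 184, 181 and 173 TPM with CsiRNA and at 180, 195 and 177 TPM with NEAT1siRNA. DNAJB1, whose message is strongly induced by heat, was at 49.0, 45.9 and 45.2 TPM and at 47.9, 46.1 and 46.5 TPM. The 95% intervals of the log2 fold change were -0.14 to 0.21 for DNAJA1 and -0.18 to 0.18 for DNAJB1. DNAJB4, a close relative of DNAJB1, fell: it was at 35.6, 34.5 and 30.8 TPM with CsiRNA and at 23.8, 31.3 and 26.2 TPM with NEAT1siRNA. NEAT1siRNA replicate 2 lay above the lowest control, so the groups of DNAJB4 overlapped. The log2 fold change was -0.31 ± 0.10 (SE, adjusted p = 0.0424), and DNAJB4 passed in 12 of 17 alternatives. The ratio of DNAJB4 to DNAJB1 was 0.727, 0.752 and 0.681 with CsiRNA and 0.498, 0.679 and 0.564 with NEAT1siRNA (two-sided exact permutation p = 0.1). With 32.7% GC, DNAJB4 was the tested member poorest in GC, and DNAJB1 has 56.3%. Within each group their ratios ranked opposite to the libraries' correlations with GC. An effect of GC on this ratio was not tested.

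Across the J proteins, none of 3 tested DNAJA, 1 of 9 DNAJB and 4 of 22 DNAJC genes passed, 2 rising and 3 falling. At an unadjusted p under 0.05, 1 DNAJA gene, DNAJA3, passed, beside 27.4% of all genes. The 5 calls are 14.7% of the 34 J proteins tested, near the 14.0% of all genes. DNAJC4 and DNAJC15 rose. DNAJC15, a J protein of the mitochondrial inner membrane whose silencing has been tied to drug resistance in other cancers, was at 5.96, 6.11 and 5.09 TPM with CsiRNA. In the NEAT1siRNA libraries DNAJC15 was at 6.32, 8.62 and 7.79 TPM. Replicate 1 lay just above the highest control (log2 fold change 0.35 ± 0.11 SE, adjusted p = 0.029). DNAJC4, whose client is not well known, was at 5.01, 4.15 and 6.36 TPM and at 7.41, 6.87 and 6.45 TPM. The lowest NEAT1siRNA value of DNAJC4 was within 0.1 TPM of the highest control (log2 fold change 0.37 ± 0.11 SE, adjusted p = 0.0252). DNAJC4 rests on 154 reads on average and overlaps NUDT22 on the same strand, so reads of the neighbour may be counted in it.

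DNAJC11 and DNAJC16 fell, and their groups did not overlap. DNAJC11, a mitochondrial protein bound to the complexes that shape the cristae, was at 36.0, 34.3 and 34.0 TPM with CsiRNA and at 29.5, 28.6 and 26.5 TPM with NEAT1siRNA. Its log2 fold change was -0.29 ± 0.09 (SE, adjusted p = 0.0285), and it passed in 13 of 17 alternatives. DNAJC16, a J protein of the ER, was at 14.0, 11.6 and 11.8 TPM and at 10.0, 10.2 and 9.69 TPM. The gap between the groups of DNAJC16 was smaller than the spread of its controls. The log2 fold change of DNAJC16 was -0.29 ± 0.10 (SE, adjusted p = 0.0415), and it passed in 12 of 17 alternatives. Just outside the threshold stood DNAJC2, the J protein of the ribosome, with an adjusted p of 0.0555 and all NEAT1siRNA values below the controls. The remaining 17 DNAJC genes had log2 fold changes from -0.21 (DNAJC14 and DNAJC17) to 0.05 (DNAJC21).

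**Figure D4:**
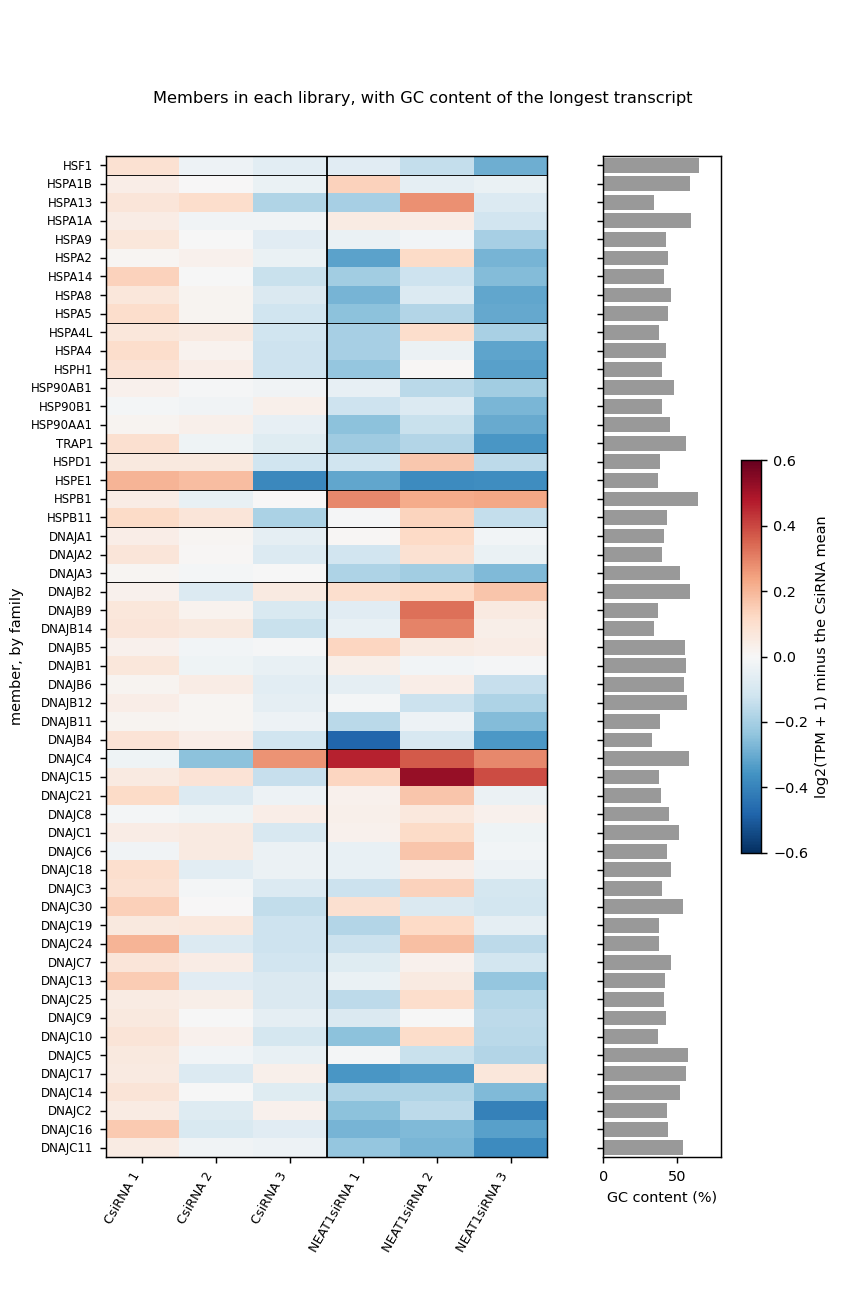
Log2(TPM + 1) of each tested member in each library minus the CsiRNA mean (colour, families separated by lines), with the GC content of the longest transcript as bars. The HSP90 rows are blue in all 3 NEAT1siRNA columns and the HSPB1, DNAJC4 and DNAJC15 rows red, whereas many other rows turn red in NEAT1siRNA replicate 2 alone.

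Grouped by where the proteins work, calls are read beside the 14.0% of all genes that passed and medians beside the -0.04 of all genes. Of 12 tested genes known as heat-inducible through HSF1, HSPB1 rose, HSPE1 fell and 10 did not pass, with a median log2 fold change of -0.07. Of 10 tested ER members DNAJC16 alone fell, and the median was -0.09. Of 10 tested mitochondrial members DNAJC4 and DNAJC15 rose and DNAJC11 and HSPE1 fell, with a median of -0.06. None of the 6 tested genes with an exact heat shock element in the promoter window passed. Their values were 5 negative and 1 positive, from -0.23 for HSP90AA1 to 0.04 for DNAJA1, beside 60.7% negative among all genes. HSP90AA1 and HSPA8 passed at an unadjusted p under 0.05, as 27.4% of all genes did. The elements of HSPD1 also lie in front of HSPE1, which starts at chr2:197500140 on the other strand and fell. Both genes with the ER stress element, HSPA5 and HSP90B1, were below the controls in each NEAT1siRNA library without passing, an order found for 19.3% of all genes. HSF1 itself was at 54.3, 49.9 and 48.7 TPM with CsiRNA and at 48.5, 46.0 and 41.4 TPM with NEAT1siRNA, with a log2 fold change of -0.17 ± 0.09 (SE) and an adjusted p of 0.241.

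Summed over all 74 members, the libraries held 5613, 5458 and 5209 TPM with CsiRNA and 4932, 5250 and 4678 TPM with NEAT1siRNA. The sums overlapped. Per 1000000 TPM outside the 4 short RNAs, the sums were 15759, 15856 and 16123 with CsiRNA and 14915, 14962 and 14657 with NEAT1siRNA, and these did not overlap. The HSP90 family gave 1961, 1944 and 1912 TPM and then 1751, 1769 and 1614 TPM, while the small HSPs went the other way, from 331, 312 and 314 TPM to 380, 369 and 363 TPM. These sums follow the few most abundant genes, and no test was run on them.

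Beyond the members, 79 genes of the same machinery were followed in 8 lists, and 68 of them were tested. None rose and 4 fell (5.88% of those tested, beside 14.0% of all genes), and the median log2 fold change was -0.09. Of the 4, 3 are exchange factors of HSP70, from a list of 11 tested (27.3%, beside 14.0% of all genes). BAG1, an exchange factor of cytosolic HSP70, was at 5.33, 5.45 and 4.94 TPM with CsiRNA and at 3.86, 3.79 and 3.97 TPM with NEAT1siRNA (log2 fold change -0.36 ± 0.09 SE, adjusted p = 0.0107). SIL1, the exchange factor of HSPA5, was at 12.6, 12.1 and 12.2 TPM and at 10.5, 9.43 and 9.96 TPM (adjusted p = 0.0416). GRPEL1, the exchange factor of HSPA9, was at 13.0, 12.2 and 10.1 TPM and at 9.35, 9.56 and 9.25 TPM (adjusted p = 0.0466). Each NEAT1siRNA value of these 3 genes lay below the controls, an order found for 19.3% of all genes. The 8 other exchange factors and partners of HSP70 did not pass. BAG1 passed in 15 of 16 alternatives, GRPEL1 in 12 of 17 and SIL1 in 9 of 17.

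None of 14 tested HSP90 cochaperones, 8 subunits of the cytosolic chaperonin TRiC, 6 prefoldin subunits, 16 genes of ER folding and the unfolded protein response, 7 mitochondrial proteases with CLPB, or the 2 genes HSF2, another heat shock factor, and HSBP1, a heat shock factor binding protein, passed in limma. At an unadjusted p under 0.05 the numbers were 2, 2, 0, 1, 2 and 0, beside 27.4% of all genes. On recovered reads 10 of the 68 passed, 3 higher and 7 lower, beside 23.3% of all genes. All 8 TRiC genes had negative values, from -0.25 to -0.07 on the log2 scale, and the groups overlapped in 7 of them. Of all genes 60.7% had a negative value. Among 17 alternatives the 68 genes gave between 0 and 16 calls, as the counts for the members did between 0 and 18.

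**Figure D5:**
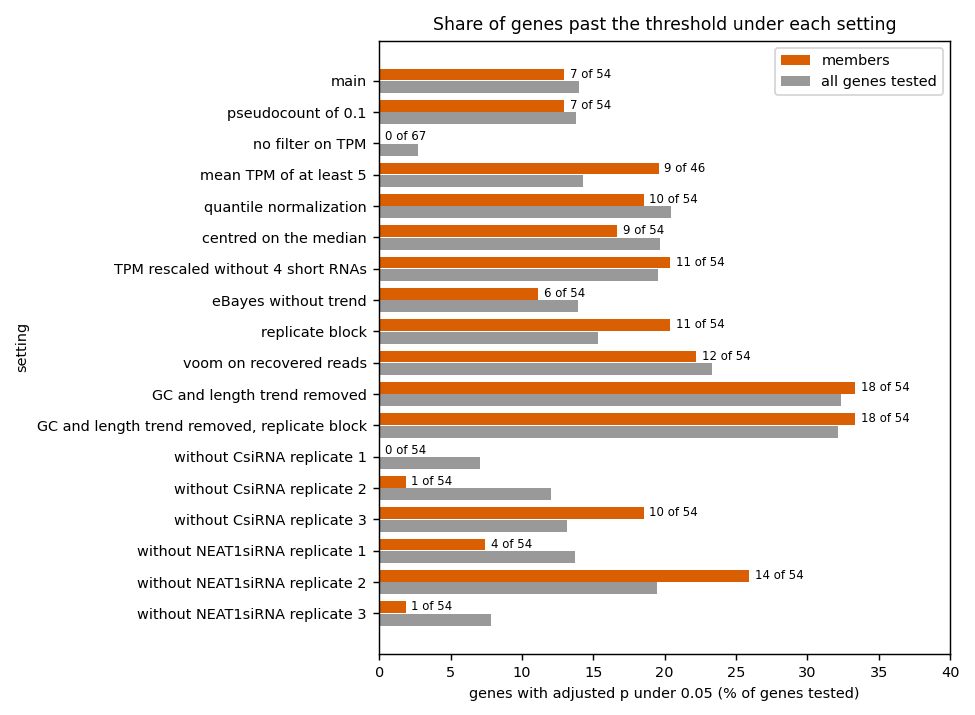
Share of tested members (orange, with counts) and of all tested genes (grey) with an adjusted p under 0.05 under each setting. The member bars lie on both sides of the grey ones, and they are at 0 of 67 without a filter on TPM and at 0 of 54 without CsiRNA replicate 1.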

How the data were processed

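Total RNA of BT-549 cells went into stranded mRNA libraries. Per the labels and the study's methods the authors aligned reads with STAR to GRCh38; the counter, its strand setting and the tool behind TPM are not given in the sources used here. The deposited TPM values (1 column per library, each summing to 1000000) were used for all tests. From a second table only the mean normalized count of each gene, a signal deposited by the authors and made with DESeq2, was used, to recover whole reads: 99.8% of values under a mean count of 5, and 98.5% from 5 to 50, came within 0.05 of a whole number. Its fold changes and p-values were not used.

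The fit was lmFit and eBayes with trend (limma 3.58.1, R 4.3.3) on log2(TPM + 1), which understates changes of low genes, over genes with a mean of at least 1 TPM and without covariates. Adjusted p-values in the text come from limma. Ratios had two-sided exact permutation tests. GC content and length (GENCODE v44, longest transcript) were known for 10423 genes and removed by splines with 4 degrees of freedom. Alternatives changed the pseudocount, filter, scaling, trend, replicate term, read-based fit (voom), GC trend, threshold and libraries.

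Members and lists were chosen with earlier results of these data known. Named were 16 core chaperones, members past the threshold, members under 1 TPM with their range, and list genes past it (1 of these is not reported here); other members were named after their values were seen, to account for each family. The labels say that cells were cultured in triplicate; whether transfections were separate is not stated, so p-values may measure technical spread only. Precision is limited by reads: tested members had from 54.7 to 61271 reads on average, and intervals cover these libraries only.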

Additional observations from a re-analysis of the deposited data

How the results depend on the processing

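Against 7 members past the threshold (3 higher, 4 lower) and 4 genes of the outside lists (0 higher, 4 lower), the counts changed as follows. Without a filter on TPM, 0 members and 0 list genes passed (all genes 2.73%). At an adjusted p under 0.01, 0 members and 1 list gene (lower) did. Quantile normalization gave 10 members (3 higher, 7 lower; all genes 20.4%) and 9 list genes (3 higher). Centring on the median gave 9 members (3 higher, 6 lower; all genes 19.7%) and 7 list genes (3 higher). TPM rescaled without the 4 short RNAs gave 11 members (8 lower; all genes 19.5%) and 10 list genes (3 higher, 7 lower). The fit on recovered reads gave 12 members (9 lower; all genes 23.3%) and 10 list genes (3 higher, 7 lower). Removing the GC and length trend gave 18 members (15 lower; all genes 32.3%) and 16 list genes (3 higher, 13 lower). With the replicate number as a block, 11 members passed (8 lower; all genes 15.3%), and with the block and the GC and length trend removed together 18 members (14 lower; all genes 32.1%) and 16 list genes (5 higher, 11 lower).

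Leaving out 1 library gave 0 to 14 members (0 to 2 higher, 0 to 12 lower) and 2 to 7 list genes (0 to 1 higher, 2 to 7 lower). The cause of these changes was not tested.

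Whether the replicate numbers pair the libraries could not be decided. Deviations from the group means correlated at -0.03, 0.25 and -0.11 for libraries with the same number. Between libraries with unlike numbers the correlations ran from -0.40 to 0.40. These deviations carry the libraries' GC trends, so the correlations cannot settle pairing, and the block is no more than an alternative.

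Fold changes near 0 changed sign. HSPA1A had 0.056 with quantile normalization, 0.048 centred, 0.022 rescaled, 0.031 on reads, 0.015 with the GC trend removed with or without the block, and -0.036 to 0.046 without 1 library. HSPD1 had 0.017, 0.019 and 0.0041 with quantile normalization, centring and reads, and -0.14 to 0.021 without 1 library. Without 1 library, DNAJB1 ran from -0.019 to 0.039, HSPA1B from -0.047 to 0.047 and DNAJA1 from -0.0049 to 0.063. The median of the members was below 0 and below that of all genes in 17 of 17 alternatives (from -0.13 to -0.02). NEAT1 passed in 17 of 17, with adjusted p-values up to 0.031.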
